A study of Mus musculus with 4 samples.

Results

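Integrins and laminins were followed as 34 genes in the RNA sequencing libraries of cells labelled as uterine NK cells, out of 21993 genes in all. They comprise 23 integrin subunit genes (Itga and Itgb symbols) and 11 laminin chain genes (Lama, Lamb and Lamc symbols), chosen by symbol. Itgav, Itgb3, Itgb5 and Itga9, which also encode integrin subunits, were left out by the same rule and are given further on for comparison. The cells were sorted from uterine tissue of female mice mated with B6 males, at gd11.5, by the surface markers CD45 and NK1.1 and the absence of CD3. In 2 libraries the mice carried Ncr1Cre, a Cre recombinase under the control of Ncr1, a gene of NK cells and related innate lymphocytes, and 2 control libraries came from mice without Cre. Both genotypes carried the same floxed alleles. Neither the age of the mice nor whether a library was 1 mouse or a pool is given in the sources used here, so the spread that the p-values rest on may be technical.

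Laminins are secreted heterotrimers of 1 alpha, 1 beta and 1 gamma chain that assemble into the sheet of a basement membrane. Integrins are cell-surface heterodimers of an alpha and a beta subunit, and the alpha subunit largely sets which ligand is bound. Subunits that pair with beta1 bind laminin, collagen or fibronectin, the alpha6 subunit with beta4 anchors epithelial cells to laminin in hemidesmosomes, and subunits that pair with beta2 or beta7 serve leukocyte adhesion. In the pregnant uterus, decidual stromal cells surround themselves with a pericellular basement membrane rich in laminin, while the uterine epithelium rests on a basement membrane of its own.

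Levels are given in FPKM (fragments per kilobase of transcript, scaled to the mapped fragments of the library), a value per length that allows genes to be compared. The low values of the files implied roughly 20960000 to 38500000 fragments per library, an estimate on which the fragment numbers given for low genes rest. Marker genes of the sorted cells were low: Ncr1 was listed at 0.14 and 0.36 FPKM in the control libraries and at 0 and 0.15 in the Ncr1Cre libraries. Klrb1c, the gene of NK1.1, was at 0.45 and 0.97 against 0.92 and 0.67, and Ptprc, the gene of CD45, at 2.89 and 2.57 against 4.39 and 5.16. The 14 NK-cell markers summed to 27.2 and 28 FPKM in control and 40.7 to 41 in Ncr1Cre, whereas 15 markers of decidual stroma and fibroblasts summed to 25295 to 26072 and 11980 to 12149. The 15 epithelial markers summed to 582 to 605 in control and 2311 to 2327 in Ncr1Cre. No defining epithelial or stromal marker was at 0.

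Of the 34 genes, 28 reached a mean of 1 FPKM over the 4 libraries and were tested with limma on log2(FPKM + 1). The levels of 15 were called higher in Ncr1Cre and those of 9 lower, at an adjusted p under 0.05. Among all 11762 tested genes 48.5% were called, 30.9% higher and 17.6% lower. The median log2 fold change (Ncr1Cre minus control) was 0.46 over the 28 genes and 0.11 over all tested genes. Lama1 and Itgam passed the filter through the Ncr1Cre libraries alone, and the other 6 genes stood below it, so these counts do not describe all 34. Median rescaling, which takes out the shift of 0.11, gave 13 higher and 10 lower, and quantile normalization gave 11 and 11. Higher calls made up 62.5% of calls in the set, and 56.5% after median rescaling, while over all genes they made up 63.7%, then 52.1%, and 46.3% after quantile normalization. A difference of at least 1 on the log2 scale without overlap of the genotypes was found for 11 of the genes, 7 of them higher and 4 lower, where 12.5% of all tested genes met this rule. The genotypes did not overlap in 27 of the 28, against 76.2% of all tested genes. With so few libraries the smallest p of an exact permutation test is 0.33, and none was run.

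**Figure D1:**
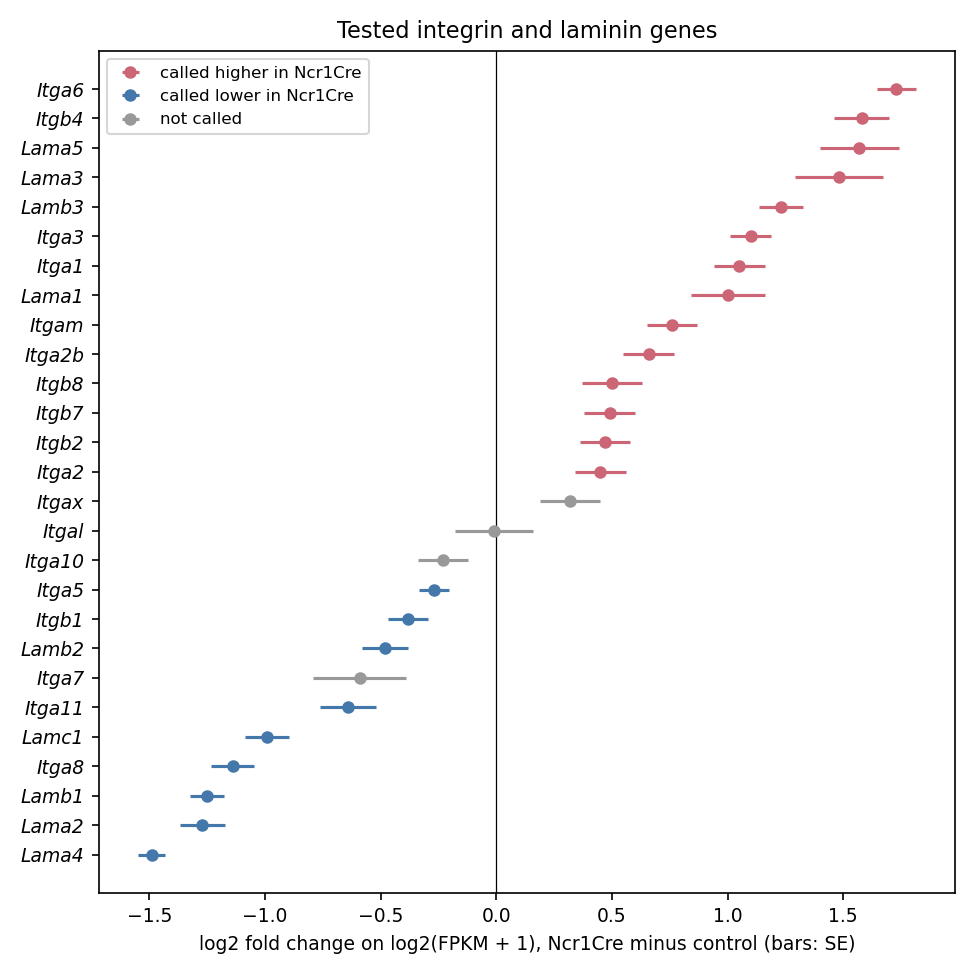
Log2 fold change of 27 tested integrin and laminin genes (Ncr1Cre minus control, from log2(FPKM + 1)), with bars for the standard error. Genes called higher reach up to 1.73 (Itga6) and the 9 called lower reach down to -1.49 (Lama4), with 4 grey genes that were not called.

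The laminin alpha chains, which carry the cell-binding end of the trimer, changed in opposite directions. Lama4, the alpha chain of vascular and decidual basement membranes, had levels of 163 and 161 FPKM in control and 57.1 and 56.9 in Ncr1Cre. Its level was the highest of the 5 alpha chains in every library, and it fell 2.84-fold (log2 fold change -1.49, SE 0.060, adjusted p = 0.000191). For Lama2, the chain known from muscle basement membrane, the values were 32.7 and 31.2 in control and 13.7 and 11.7 in Ncr1Cre. Both Ncr1Cre values lay below both control values, and the level fell 2.51-fold (-1.27, SE 0.099, adjusted p = 0.000719). Most markers of stroma and smooth muscle were lower in the same libraries, where 17.6% of all tested genes were called lower. Of the 15 genes of decidual stroma and fibroblasts, 12 were called lower and 1 higher. The 1 was Prl8a2, at 3.35 and 4.12 FPKM in control and at 21.9 and 24.7 in Ncr1Cre (2.36, adjusted p = 0.000273). The 9 tested smooth-muscle genes of 10 were all called lower, with sums of 604 to 617 FPKM in control and 222 to 228 in Ncr1Cre. The part of stroma and smooth muscle in the fall of Lama4 and Lama2 was not tested. In such bulk samples fewer cells of a type and less RNA per cell cannot be told apart.

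Lama5, Lama3 and Lama1 were higher in Ncr1Cre. Lama5, the broad alpha chain of epithelial and endothelial basement membranes, was at 11.9 and 8.70 FPKM in control and at 35.0 and 29.7 in Ncr1Cre, with no overlap. It rose 3.14-fold (log2 fold change 1.57, SE 0.17, adjusted p = 0.00173). Lama3 encodes the alpha chain of the epithelial anchoring laminin that also holds the chain of Lamb3. Its levels of 1.83 and 2.27 in control and 6.19 and 9.03 in Ncr1Cre did not overlap either, although the Ncr1Cre libraries differed between themselves. The rise was 3.71-fold (1.48, SE 0.19, adjusted p = 0.00312), and the adjusted p was 0.0543 when genes of all levels were fitted. Lama1, the chain of early embryonic and some epithelial basement membranes, stood at 0.83 and 0.84 in control and at 3.19 and 2.22 in Ncr1Cre. It rose 3.23-fold (1.0, SE 0.16, adjusted p = 0.00614), with an adjusted p of 0.0646 without the filter on low values. Lama1 passed that filter through the Ncr1Cre libraries alone. Epithelial genes rose in the same libraries, 14 of 15 called higher against 30.9% of all tested genes. So did trophoblast genes, 6 of 6 tested of 11 (summed 321 to 362 FPKM in control and 958 to 1082 in Ncr1Cre, Gcm1 at 0 throughout). The part of epithelium and trophoblast in these rises was not tested.

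**Figure D2:**
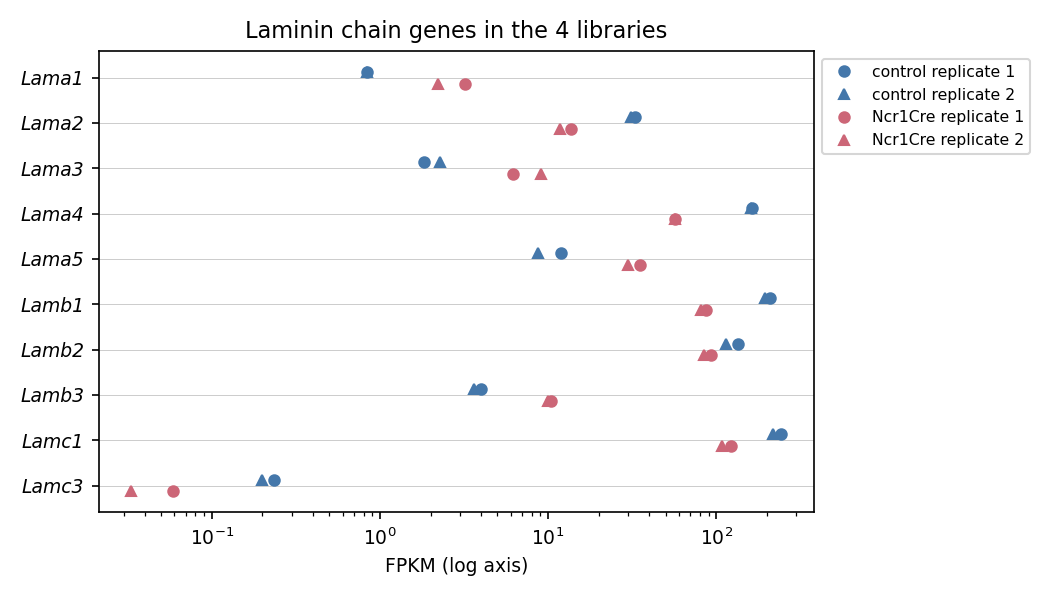
FPKM of 10 laminin chain genes in each library on a log axis, control in blue and Ncr1Cre in red, with circles for replicate 1 and triangles for replicate 2. Lama2, Lama4, Lamb1, Lamb2, Lamc1 and Lamc3 lie lower in Ncr1Cre, and Lama1, Lama3, Lama5 and Lamb3 lie higher.

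The abundant chains Lamb1, Lamb2 and Lamc1 fell, and the epithelial Lamb3 rose. Lamb1, the beta chain of most early and stromal laminins, was at 208 and 194 FPKM in control and at 86.8 and 80.7 in Ncr1Cre. It fell 2.40-fold without overlap (log2 fold change -1.25, SE 0.074, adjusted p = 0.000367). Lamb2, the beta chain of vascular, muscle and kidney basement membranes, was at 134 and 115 against 93.1 and 84.2. The fall was 1.40-fold (-0.48, SE 0.10, adjusted p = 0.0158), and it missed the threshold without replicate 1 of the control (adjusted p = 0.0559) and without the filter (0.107). Lamc1, the gamma chain of most laminins and the highest of the 34 genes in every library, stood at 244 and 219 in control and at 123 and 109 in Ncr1Cre. Its level fell 1.99-fold with no overlap (-0.99, SE 0.095, adjusted p = 0.00129).

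Lamb3 encodes the beta chain of the epithelial anchoring laminin. It was at 3.97 and 3.61 FPKM in control and at 10.5 and 9.94 in Ncr1Cre. Neither Ncr1Cre value overlapped the control values, and the level rose 2.69-fold (log2 fold change 1.23, SE 0.095, adjusted p = 0.000689). The level of Lama3, its partner, was 0.46 and 0.629 times that of Lamb3 in control and 0.591 and 0.908 times in Ncr1Cre, and the genotypes overlapped in this ratio. Lamc3, a minor gamma chain, was listed at 0.24 and 0.20 in control and at 0.059 and 0.033 in Ncr1Cre, values that rest on 4 to 53 implied fragments.

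The make-up of the laminin alpha and beta chains was also expressed as shares within a library, which do not depend on scaling between libraries. Summed alpha chains stood at 211 and 204 FPKM in control and at 115 and 110 in Ncr1Cre, and summed beta chains at 346 and 312 against 190 and 175. The sums were 1.84-fold and 1.80-fold lower in Ncr1Cre. The proportion of the classes was nearly the same throughout: beta chains came to 1.53 to 1.65 times the alpha chains over the 4 libraries, and the genotypes overlapped in this ratio. Within the classes the shares differed. Lama4 made up 77.6% and 78.9% of alpha-chain FPKM in control and 49.5% and 51.9% in Ncr1Cre, while Lama5 went from 5.67% and 4.26% to 30.4% and 27.1%. Lama4 exceeded Lama5 by 13.7 and 18.5 times in control and by 1.63 and 1.92 times in Ncr1Cre. Lama3 made up 0.868% and 1.11% against 5.37% and 8.23%, and Lama2 15.5% and 15.3% against 11.9% and 10.7%. Lamb1 held 60.1% and 62.1% of beta-chain FPKM in control and 45.6% and 46.2% in Ncr1Cre, where Lamb2 (48.9% and 48.1%) was the larger chain. Lamb3 held 1.15% and 1.16% against 5.50% and 5.68%. None of these shares overlapped between the genotypes. They were not tested.

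**Figure D3:**
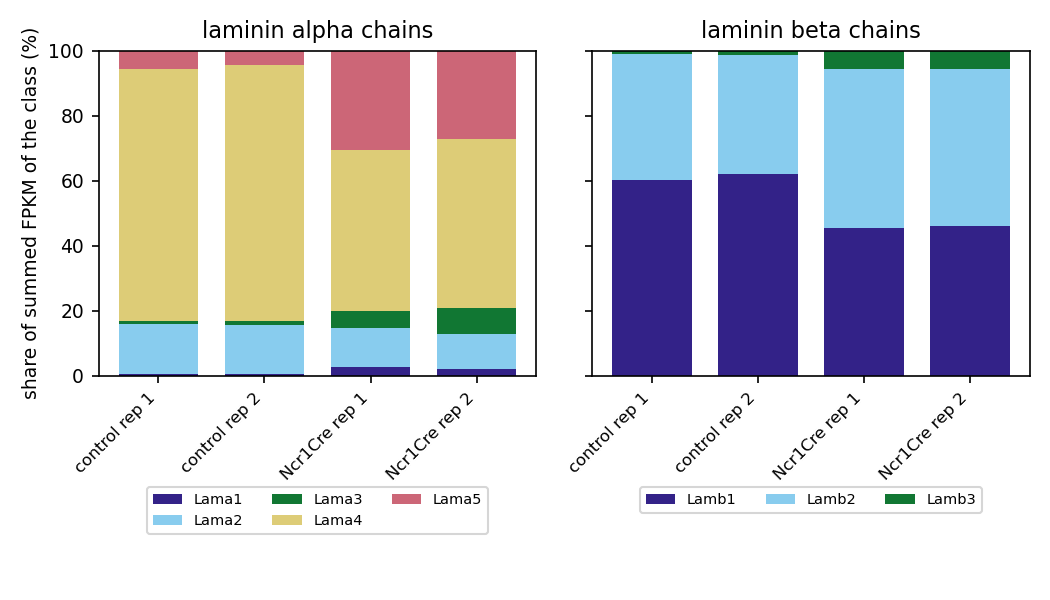
Stacked bars give the share of each gene in the summed FPKM of the laminin alpha and beta chains in the 4 libraries, in percent. Lama4 fills 77.6% to 78.9% of the alpha bar in control and 49.5% to 51.9% in Ncr1Cre.

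The promoter sequences of laminin chains that moved in opposite directions are shown here. They are the 250 bases before a RefSeq start on the build GRCm38.p6, which is newer than the build of the files, written 5′ to 3′ on the strand of the gene. Capitals mark a GC box (GGGCGG) or a CCAAT box (CCAAT), each on either strand, and no 2 of the marked motifs share a base. Lama5 (chr2:180225860-180226109, minus strand) and the upstream start of Lamb3 (chr1:193301744-193301993, plus strand) belong to chains that were higher in Ncr1Cre, and Lama2 (chr10:27616943-27617192, minus strand) and Lamb1 (chr12:31265043-31265292, plus strand) to chains that were lower.
Lama5: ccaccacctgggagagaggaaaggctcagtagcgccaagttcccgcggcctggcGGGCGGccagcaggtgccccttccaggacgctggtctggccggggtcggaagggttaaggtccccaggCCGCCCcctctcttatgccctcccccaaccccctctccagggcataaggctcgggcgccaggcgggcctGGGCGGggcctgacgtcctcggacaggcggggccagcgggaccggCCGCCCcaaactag
Lamb3: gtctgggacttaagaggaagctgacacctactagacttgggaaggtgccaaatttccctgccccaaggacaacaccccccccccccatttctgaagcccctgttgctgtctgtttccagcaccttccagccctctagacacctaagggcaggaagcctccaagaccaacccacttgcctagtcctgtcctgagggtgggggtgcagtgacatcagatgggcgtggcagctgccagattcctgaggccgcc
Lama2: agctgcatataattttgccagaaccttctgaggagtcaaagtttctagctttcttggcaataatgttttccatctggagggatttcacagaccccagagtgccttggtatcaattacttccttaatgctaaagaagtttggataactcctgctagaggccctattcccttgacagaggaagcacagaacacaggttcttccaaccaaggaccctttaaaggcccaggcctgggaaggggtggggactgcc
Lamb1: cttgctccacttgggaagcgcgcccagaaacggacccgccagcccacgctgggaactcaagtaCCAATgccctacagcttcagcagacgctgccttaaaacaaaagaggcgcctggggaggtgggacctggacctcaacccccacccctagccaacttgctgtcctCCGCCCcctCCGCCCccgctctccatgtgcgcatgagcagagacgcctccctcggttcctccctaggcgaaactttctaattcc

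Among these windows, that of Lama5 held 4 GC boxes and had a GC content of 72.4%, and that of Lamb1 held 2 GC boxes and 1 CCAAT box at 62.0% GC. Those of Lamb3 (58.8% GC) and Lama2 (47.2% GC) held neither. The median GC content of all 32851 windows was 52.4%. Of the 34 genes, 21 had a window in the table, with 24 windows in all. A GC box was in 8 of the 24 (32.7% of all windows), a CCAAT box in 4 (33.8%) and a TATA box (TATAAA) in 0 (12.4%). An AP-1 site (TGANTCA) was in 1, that of Itgax (6.75% of all windows), and the core AACNNGTT of Grainyhead-like factors in 1, that of a start of Itgb6 (3.64%). All motifs were searched on both strands.

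Of the 4 laminin-binding integrin subunits, 3 were higher in Ncr1Cre and 1 was not called. Over all tested genes 30.9% were called higher and 17.6% lower. Itga6, the alpha subunit of both major laminin receptors, was at 6.54 and 6.86 FPKM in control and at 25.5 and 23.7 in Ncr1Cre. It had the largest log2 fold change of the 28 tested genes (1.73, SE 0.084, adjusted p = 0.000251), a 3.68-fold rise without overlap. Itgb4, whose product pairs only with that of Itga6 in hemidesmosomes, was at 8.67 and 7.94 in control and at 29.7 and 24.2 in Ncr1Cre. Its rise was 3.24-fold (1.58, SE 0.12, adjusted p = 0.00068). The level of Itgb4 was 1.33 and 1.16 times that of Itga6 in control and 1.16 and 1.02 times in Ncr1Cre, and the genotypes overlapped in this ratio. Itga3, whose product with beta1 binds the laminins of Lama3 and Lama5, was at 9.88 and 8.91 in control and at 21.8 and 20.6 in Ncr1Cre. It rose 2.26-fold (1.10, SE 0.089, adjusted p = 0.000795). Itga7, the laminin receptor subunit of muscle, went the other way at 3.68 and 2.50 against 2.06 and 1.35. The values did not overlap, but the difference did not pass the test (-0.59, SE 0.20, adjusted p = 0.0648). It passed with the replicate block (adjusted p = 0.0156), with median rescaling (0.0361), with quantile normalization (0.0296), and without replicate 1 of Ncr1Cre (0.027) or replicate 2 of the control (0.0478). The summed epithelial markers of Ncr1Cre were 3.91 times and the summed trophoblast markers 2.99 times the control level. The part of those cells in the 3 rises was not tested.

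Itgb1, the common beta subunit of laminin, collagen and fibronectin receptors, was the highest integrin gene of the set in every library. It stood at 99.3 and 111 FPKM in control and at 77.5 and 84.2 in Ncr1Cre. The fall of 1.30-fold passed the test (log2 fold change -0.38, SE 0.087, adjusted p = 0.020), but not without replicate 1 of Ncr1Cre (0.0694), without replicate 2 of the control (0.0823) or without the filter (0.101). Of the summed FPKM of the 7 beta subunit genes in the set, Itgb1 made up 88.1% and 90.3% in control and 67.4% and 72.2% in Ncr1Cre, and Itgb4 made up 7.69% and 6.45% against 25.8% and 20.8%. These shares leave out Itgb3 and Itgb5, which the rule excluded, and so are not shares of all beta subunits. Itgb5 was above Itgb1 in every library, at 241 and 199 FPKM in control and at 130 and 111 in Ncr1Cre. Among the alpha subunits of laminin receptors, Itga3 was the largest in control (49.2% and 48.8%) and Itga6 in Ncr1Cre (51.7% and 51.9%).

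**Figure D4:**
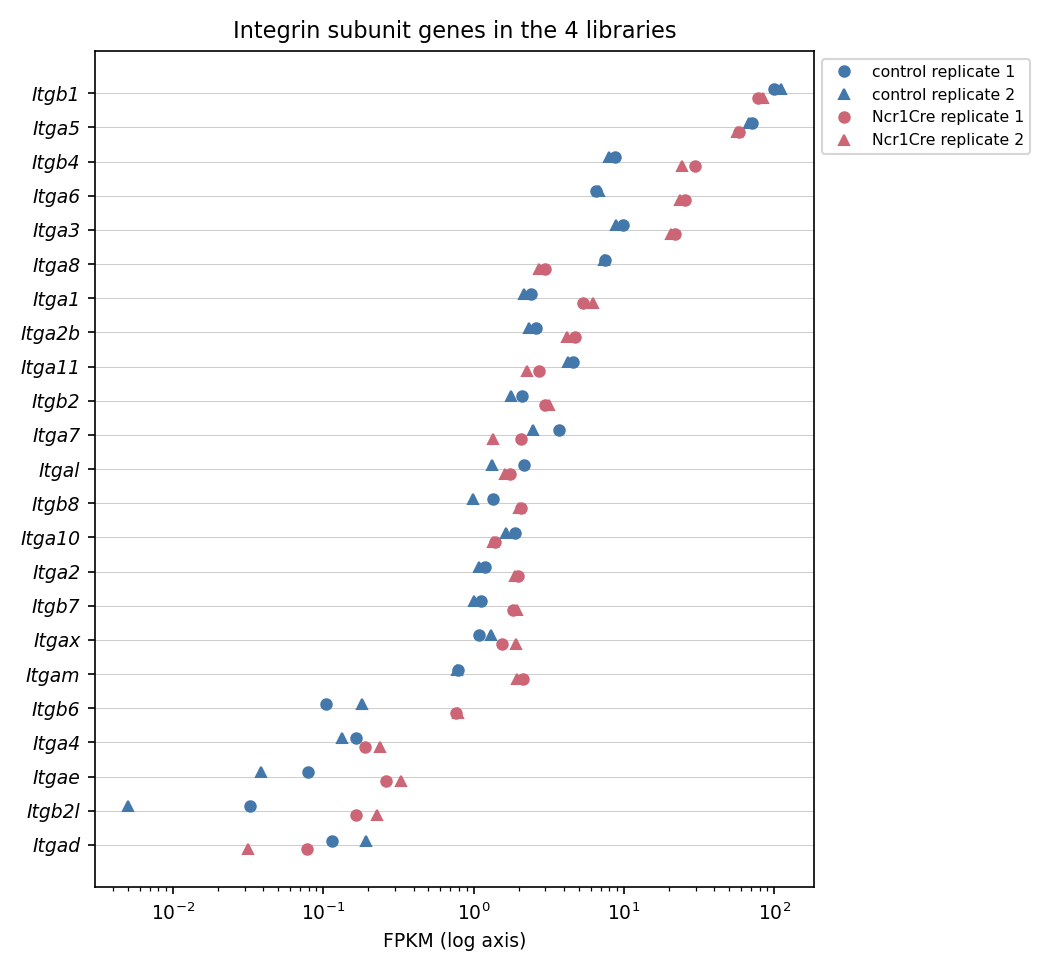
FPKM of the 23 integrin subunit genes in each library on a log axis, ordered by their mean over the libraries, control in blue and Ncr1Cre in red. Itgb4, Itga6 and Itga3 lie between 6.54 and 9.88 in control and between 20.6 and 29.7 in Ncr1Cre, while Itgb1 and Itga5 at the top lie slightly lower in Ncr1Cre.

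The collagen-binding alpha subunits did not move as one group. Itga1, which prefers the collagen of basement membranes and marks tissue-resident lymphocytes, smooth muscle and capillary endothelium, was at 2.41 and 2.17 FPKM in control and at 5.37 and 6.25 in Ncr1Cre. It rose 2.54-fold (log2 fold change 1.05, SE 0.11, adjusted p = 0.00192). Itga2, the collagen receptor subunit of platelets and epithelium, was at 1.19 and 1.09 against 1.96 and 1.88. Its 1.68-fold rise (0.45, SE 0.11, adjusted p = 0.0216) was lost in each fit that left out 1 library (adjusted p 0.0535 to 0.0967), with quantile normalization (0.113) and without the filter (0.051). Itga11, the fibrillar-collagen receptor subunit of fibroblasts, was at 4.59 and 4.22 in control and at 2.71 and 2.26 in Ncr1Cre. It fell 1.77-fold (-0.64, SE 0.12, adjusted p = 0.0094), with an adjusted p of 0.0527 without replicate 1 of the control and 0.0617 without the filter. Itga10, known from cartilage, stood at 1.89 and 1.66 against 1.39 and 1.34 and did not pass the test (-0.23, SE 0.11, adjusted p = 0.146), although it did with quantile normalization (0.0283). Endothelial markers moved both ways in these libraries, 4 of 8 tested called higher and 2 lower, with sums of 27.5 to 27.9 in control and 41.7 to 42 in Ncr1Cre. Among all tested genes 30.9% were called higher and 17.6% lower.

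Among subunits that bind fibronectin and other ligands with the RGD motif, Itga5 was by far the most abundant. Itga5, the classical fibronectin receptor subunit, was at 71.3 and 68.3 FPKM in control and at 58.3 and 57.0 in Ncr1Cre. The 1.21-fold fall passed the test (log2 fold change -0.27, SE 0.065, adjusted p = 0.0226), and was lost in each fit that left out 1 library (0.0607 to 0.104). Itga8, a subunit of smooth muscle and mesenchyme that binds nephronectin, was at 7.53 and 7.34 in control and at 2.97 and 2.71 in Ncr1Cre. Its fall was 2.62-fold without overlap (-1.14, SE 0.095, adjusted p = 0.00087). Npnt, which encodes nephronectin and was picked with its values in view, rose from 3.11 and 2.41 to 7.01 and 4.53 (0.83, adjusted p = 0.0266). Itga2b, the platelet fibrinogen receptor subunit, was at 2.61 and 2.32 in control and at 4.76 and 4.16 in Ncr1Cre, and rose 1.81-fold (0.66, SE 0.11, adjusted p = 0.00796, and 0.0548 without the filter). The 8 platelet markers, Itga2b among them, summed to 8.77 and 8.80 in control and to between 19.8 and 24 in Ncr1Cre. Of 4 tested, 3 were called higher, Itga2b itself among them, where 30.9% of all tested genes were called higher. Pf4, also among the 3, passed the filter through the Ncr1Cre libraries alone. Gp9 was at 0 in both control libraries. Itga4, a fibronectin and VCAM1 receptor subunit of leukocytes, was listed at 0.17 and 0.13 against 0.19 and 0.24.

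Itgb8 and Itgb6 encode beta subunits that pair with alpha-v and release latent TGF-beta. Itgb8 was at 1.34 and 0.99 FPKM in control and at 2.08 and 2.01 in Ncr1Cre. Its 1.75-fold rise (log2 fold change 0.50, SE 0.13, adjusted p = 0.0271) was lost with median rescaling (0.0544) and quantile normalization (0.104), without the filter (0.103), and without either Ncr1Cre library (0.0697 and 0.0574) or replicate 2 of the control (0.114). Itgb6, an epithelial subunit below the filter, was listed at 0.10 and 0.18 against 0.76 and 0.79, a 5.43-fold difference of means that rests on 18 to 95 implied fragments. Their partner Itgav stood at 10.1 and 9.61 in control and at 12.5 and 12.3 in Ncr1Cre (0.30, adjusted p = 0.0315), while the other beta subunits that bind alpha-v were lower: Itgb3 fell from 26.9 and 24.1 to 14.3 and 14.6 (-0.77, adjusted p = 0.00206) and Itgb5 from 241 and 199 to 130 and 111 (-0.86, adjusted p = 0.00479). Itga9 fell from 2.79 and 2.50 to 1.67 and 1.60 (-0.47, adjusted p = 0.0186).

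Leukocyte integrin genes were low in both genotypes, at most 3.16 FPKM. Itgb2, the beta subunit of all classical leukocyte integrins, was at 2.11 and 1.77 FPKM in control and at 2.97 and 3.16 in Ncr1Cre. It rose 1.58-fold (log2 fold change 0.47, SE 0.11, adjusted p = 0.0227), but not past the threshold with median rescaling (0.0509), with quantile normalization (0.0866), without the filter (0.0914), or without replicate 2 of Ncr1Cre (0.0707) or of the control (0.105). Itgam, the alpha subunit of the complement receptor of myeloid and NK cells, was at 0.79 and 0.78 against 2.13 and 1.94. Its rise was 2.59-fold (0.76, SE 0.11, adjusted p = 0.00434), but it passed the filter through the Ncr1Cre libraries alone. Of its exon bases, 68.7% are shared with the annotated gene Gm49368 on the same strand, so its value is uncertain. The same holds for Itga10, with 33.5% shared with Gm42957, and for a smaller part of Itga1 (3.68%, Gm49395) and Itgad (7.32%, a pseudogene) on the same strand. None of these same-strand genes has a value of its own among the 21993 genes. Whether their fragments entered the values of the set cannot be told. On the opposite strand, other genes shared 8.6% of the exon bases of Itgad, 8.04% of Itga4 (with Cerkl), 7.66% of Itgb4, 6.27% of Lamc3, 5.05% of Itga8, 3.86% of Lama2 and 1.83% of Lama3, and less of Itga7. Itgb7, the beta subunit of gut-homing and intraepithelial lymphocytes, was at 1.12 and 1.0 against 1.83 and 1.96. The 1.78-fold rise (0.49, SE 0.11, adjusted p = 0.0174) was lost with quantile normalization (0.0893) and without replicate 2 of Ncr1Cre (0.0582), replicate 1 of the control (0.0581) or replicate 2 of the control (0.0814).

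Itgal, the alpha subunit of LFA-1 on lymphocytes, was at 2.16 and 1.32 FPKM in control and at 1.75 and 1.62 in Ncr1Cre, and was the only tested gene of the set whose genotypes overlapped (log2 fold change -0.01, SE 0.17, adjusted p = 0.96). Itgax, the alpha subunit typical of dendritic cells, stood at 1.09 and 1.32 against 1.56 and 1.93 and did not pass the test (0.32, SE 0.13, adjusted p = 0.102). Below the filter, Itgae, which encodes the subunit that pairs with beta7 and binds E-cadherin, was listed at 0.079 and 0.039 against 0.26 and 0.33. Itgad was listed at 0.11 and 0.19 against 0.078 and 0.031, and Itgb2l, a close relative of Itgb2, at 0.033 and 0.005 against 0.17 and 0.23. The last 3 genes rest on 0 to 29 implied fragments per library. Leukocyte genes outside the set were higher in Ncr1Cre as well, where 30.9% of all tested genes were called higher. The 6 general leukocyte markers were all called higher (summed 17.7 to 19.8 FPKM in control and 36.6 to 38.7 in Ncr1Cre). Of 8 tested macrophage and dendritic cell genes 6 were higher and 1 lower (47.8 to 52 against 103 to 104). Of 3 tested neutrophil genes 2 were higher (3.56 against 21.2 to 22.5), and of 6 tested NK-cell genes 3. Cd53, a general leukocyte marker, and S100a8, a neutrophil gene, passed the filter through the Ncr1Cre libraries alone. Cd163 was at 0 in 3 libraries. Of the neutrophil genes, Ly6g was at 0 in both control libraries, while Elane was at 0 in both Ncr1Cre libraries and in replicate 1 of the control. None of the T-cell genes reached the filter, with sums of 1.0 to 1.01 in control and 1.4 to 1.65 in Ncr1Cre. Cd3e was at 0 in control, but Cd3g was at 0.56 and 0.37 in control and at 0.48 and 0.28 in Ncr1Cre. The part of each cell type in the leukocyte integrin values was not tested.

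Genes that work with laminins and integrins were followed as 7 lists, of which 84 genes were tested. Over all tested genes 30.9% were called higher and 17.6% lower. Basement membrane partners of laminin went with the abundant chains: of 18 tested, 15 were lower and 2 higher, with a median log2 fold change of -0.98 against 0.11 over all genes. Among those lower, Col4a3 passed the filter through the control libraries alone. Sparc, a collagen-binding matrix protein, fell from 8295 and 8064 FPKM to 3122 and 2956 (-1.43, adjusted p = 0.000225), Smoc1, its relative, from 87.5 and 86.8 to 36.5 and 38.6 (-1.19, adjusted p = 0.000333), and Nid1, the nidogen that links laminin to collagen IV, from 239 and 213 to 89.5 and 85.3 (-1.36, adjusted p = 0.000381). Receptors of laminin other than integrins were listed together with Utrn, Sgcb and Sgce, which encode partners of the receptor dystroglycan and not receptors. Of the 10 tested genes, 6 were lower, those partners among them, and 1 higher (median -0.34). The 1 was Bcam, the receptor for the chain of Lama5, which rose from 96.6 and 93.7 to 178 and 172 (0.87, adjusted p = 0.000562), whereas the sarcoglycans Sgcb (11.3 and 11.01 to 5.53 and 5.46, -0.91, adjusted p = 0.00114) and Sgce (36.2 and 36.5 to 21.1 and 22.1, -0.73, adjusted p = 0.00134) fell.

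Of 7 tested hemidesmosome partners, 5 were higher, as were Itga6 and Itgb4, 0 were lower and 2 were not called (median log2 fold change 0.68). Over all tested genes 30.9% were called higher and 17.6% lower, with a median of 0.11. Pkp1, which is among the 5, encodes a protein of desmosomes, a different junction. Dst, which encodes the plakin that ties the alpha6 beta4 integrin to keratin filaments, rose from 0.76 and 1.70 FPKM to 16.2 and 16.0 (2.97, adjusted p = 0.00058). Krt5 rose from 85.0 and 74.2 to 187 and 170 (1.15, adjusted p = 0.000845) and Krt14 from 26.2 and 25.3 to 43.4 and 40.3 (0.68, adjusted p = 0.00203), keratins that pair in basal epithelial cells. Krt5 is also 1 of 6 mesothelial markers, of which the other 5 were called lower (summed 319 to 342 FPKM in control and 250 to 272 in Ncr1Cre). Plec, the other plakin of the hemidesmosome, was picked with its values in view: it had 24.6 and 23.5 FPKM in control and 24.1 and 23.7 in Ncr1Cre and did not pass the test (-0.01, adjusted p = 0.941). Cd151, picked in the same way, was at 60.6 and 54.4 against 53.1 and 51.6 and did not pass either (-0.13, adjusted p = 0.233).

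Of 14 tested matrix ligands of integrins, 9 were lower and 2 higher (median log2 fold change -0.38). Spp1, which encodes osteopontin, rose from 177 and 193 FPKM to 1694 and 1812 (3.24, adjusted p = 0.000126), while Postn, which encodes periostin and is also among the stromal markers, fell from 1584 and 1743 to 451 and 494 (-1.81, adjusted p = 0.000225) and Thbs2 from 22.5 and 22.0 to 8.06 and 7.96 (-1.37, adjusted p = 0.000318). Among 7 tested cell-surface ligands of leukocyte integrins, 2 were higher and 2 lower (median 0.12), against 30.9% and 17.6% of all tested genes. Cdh1, the E-cadherin gene and an epithelial marker, rose from 13.1 and 13.0 to 56.6 and 54.4 (2.01, adjusted p = 0.000149) and F11r from 12.1 and 11.7 to 28.6 and 26.2 (1.14, adjusted p = 0.000575), and Jam3 fell from 12.1 and 12.4 to 5.27 and 6.09 (-0.99, adjusted p = 0.00145). Of 24 tested activators and cytoplasmic adaptors of integrins, 4 were higher and 9 lower (median -0.14). Fermt1, the epithelial kindlin, rose from 1.56 and 1.22 to 6.51 and 6.64 (1.67, adjusted p = 0.000523), Tns1, a tensin, fell from 52.9 and 48.7 to 29.2 and 25.4 (-0.87, adjusted p = 0.00196), and Sharpin, which encodes an inhibitor of integrin activation, rose from 12.4 and 11.1 to 20.9 and 22.5 (0.83, adjusted p = 0.00203).

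**Figure D5:**
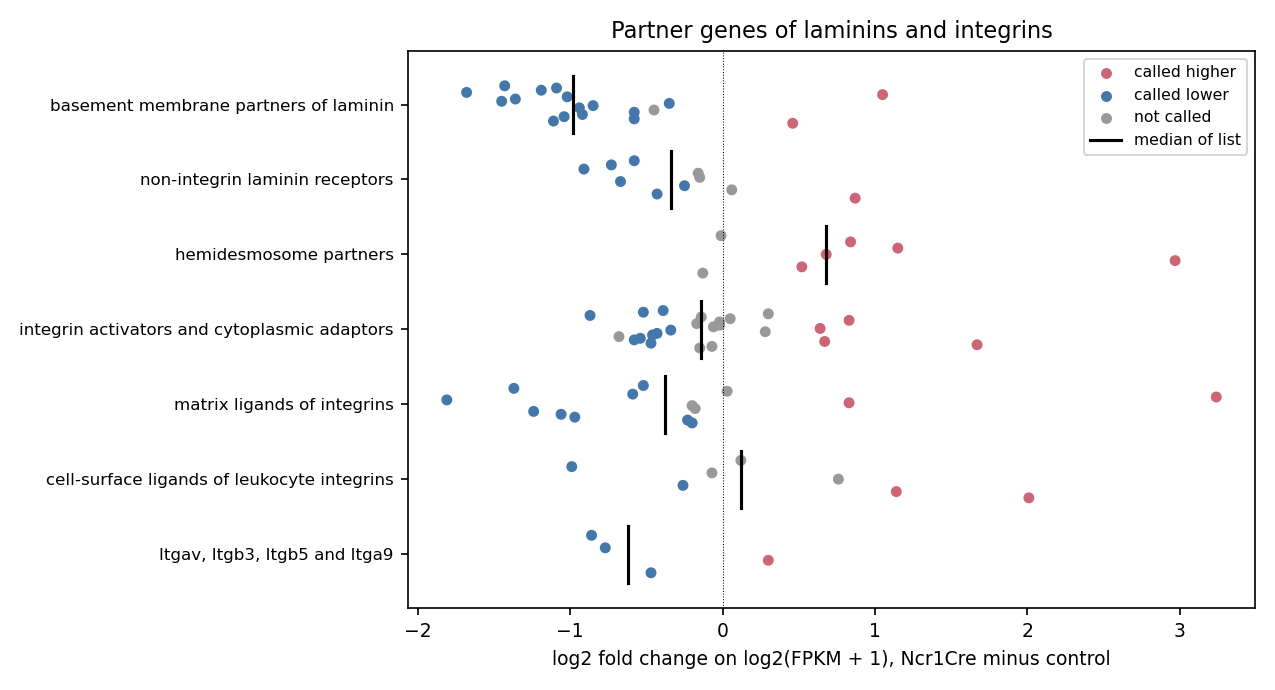
Log2 fold change (Ncr1Cre minus control, from log2(FPKM + 1)) of each tested gene in the 7 lists of partner genes, with a black line at the median of each list. Basement membrane partners centre on -0.98 and hemidesmosome partners on 0.68, where the median of all tested genes was 0.11.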

How the data were processed

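RNA was extracted with a column kit and sequenced from 4 libraries, 2 per genotype, grouped by the genotype label. The values are FPKM, which the authors made with Cufflinks on mm9 per the submitters' processing notes. Which aligner and annotation were used, and whether reads were assigned by strand, is not given in the sources used here. The rest of the genotype, and the values of 1 tested gene of the set, are not reported here. All 34 symbols matched the reference symbol of their identifier.

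Differences on log2(FPKM + 1) were tested two-sided with limma 3.58.1 (R 4.3.3, trend on) over the 11762 genes averaging 1 FPKM or more, with Benjamini-Hochberg adjustment and calls under 0.05. Fold changes of low genes are understated on this scale. The fit was tested on simulated data, as was the estimate of fragments. That estimate took the smallest total at which the share of low values of genes with 1 transcript that were whole within 0.02 fragments came near its highest. Only 30.5% to 37.1% of these values were whole, so the fragment numbers are approximate, and fragments per gene use the longest transcript of GENCODE on GRCm38. No count test was run. Lower-case windows come from RefSeq.

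Every other tested gene of the set was to be named, with the 3 lowest-p genes of each partner list. Of the markers, genes that define the sort or were listed at 0 are named, and some others, such as Prl8a2, were picked with their values in view. The members and lists were chosen with earlier results of these data known. Alternatives were leaving out each library, a block for the replicate number, quantile normalization, median rescaling, a pseudocount of 0.1, no filter, and a filter at 5 FPKM.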

Additional observations from a re-analysis of the deposited data

How the results depend on the processing

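No gene of the set that was called changed direction under any alternative run (Itgal, never called, changed sign), and 14 of the 28 tested genes kept their call or lack of one in every fit that tested them. The count called higher was 15 in the main fit and 10 to 15 under the alternatives that tested all 28, and 6 with the filter at 5 FPKM, where only 14 of the 28 were tested and all 14 kept their call. The count called lower lay between 6 and 11, against 9. Without the filter 10 calls missed the threshold. Over all genes, 2071 were called lower in the main fit, 1340 without the filter, and 1354 to 1883 when 1 library was left out, with the lowest count without replicate 1 of the control. In those fits the lone library was assumed to vary like the others. The replicate numbers share only a number (the correlation of replicate differences between genotypes was 0.161). The replicate block gave 15 higher and 10 lower in the set and 6004 calls over all genes, and added the call of Itga7. The laminin shares kept their direction without each library. Values well below 1 FPKM rest on few fragments, and an exact 0 can be a failed estimate.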

Other observations

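Kindlins switch integrins to the active state. Fermt1, the epithelial member, was higher in Ncr1Cre as given above. Fermt3, the member of blood cells, was at 1.10 and 0.85 FPKM in control and at 2.02 and 2.25 in Ncr1Cre, and passed the filter through the Ncr1Cre libraries alone. Fermt2, the widely expressed member, fell from 30.9 and 29.1 to 22.1 and 20.6 (log2 fold change -0.47, adjusted p = 0.00758). Netrin genes, which are relatives of the laminins, differed too: Ntn1 rose from 25.6 and 20.5 to 54.4 and 43.3 (1.05, adjusted p = 0.005), and Ntn4, whose product binds laminin gamma chains, fell from 28.2 and 25.6 to 10.4 and 5.69 (-1.68, adjusted p = 0.00545). These genes, other than Fermt1, were picked with their values in view.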
